A study of Mus musculus with 5 samples.

Results

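The 4 mouse miRNAs described here are grouped as kidney-enriched: mmu-miR-192-5p, mmu-miR-194-5p, mmu-miR-215-5p, and mmu-miR-204-5p, written below without the species prefix. They were chosen by name as miRNAs of kidney tubules, with earlier results of these data known, and are 4 of the 1247 miRNAs on the array. The name was not borne out for all 4 here. miR-215-5p was detected on no array, and miR-204-5p was near the detection level on the sham array. Kidney RNA of male C57B/6 mice was hybridised after sham surgery or at 6, 12, 24, or 48 h after bilateral renal ischemia reperfusion injury (IRI) with 30 min of warm ischemia. In sham mice the operation was carried out but the renal vessels were not clamped, and all kidneys were perfused with saline before excision. No engineered allele is described, and the age of the mice and the time at which sham kidneys were taken are not given in the sources used here. Each group was 1 array. The methods name 8 mice per time point, and whether their RNA was pooled is not stated. No test between groups was therefore possible, and the errors given here are those the scanner software assigned to 1 array, without the spread between mice. In whole tissue, fewer cells of a type and less RNA per cell cannot be told apart.

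A miRNA is cut from a hairpin precursor, and one arm, the mature strand, is loaded into the silencing complex. There it represses mRNAs that pair with its seed, the stretch from base 2 to base 8. miR-192 and miR-215 are close relatives induced by p53, and each gene is transcribed together with a copy of miR-194. miR-192 and miR-194 are also known from liver and intestinal epithelium, and miR-204 is known from the kidney, the retinal pigment epithelium, and the lens.

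The mature sequences are shown because the members fall into seed groups and because near-identical relatives can pair with one array probe. All 4 members were matched in RefSeq (GRCm38.p6), and miR-211-5p is added as the nearest relative of miR-204-5p. Capitals mark the seed, and all lie on the plus strand.
miR-192-5p: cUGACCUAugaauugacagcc
miR-215-5p: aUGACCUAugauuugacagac
miR-194-5p: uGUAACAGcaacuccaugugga
miR-204-5p: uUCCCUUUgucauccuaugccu
miR-211-5p: uUCCCUUUgucauccuuugccu
miR-192-5p and miR-215-5p shared their seed with each other and with no other mouse miRNA of the RefSeq table. Counted from the 5′ end of miR-192-5p, miR-215-5p differed by C1A, A12U, and C20A. miR-204-5p differed from miR-211-5p by A17U alone, and miR-7670-3p was the only further miRNA with their seed. The seed of miR-194-5p was shared by no other entry.

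The genes of the miR-192 and miR-194 families lie in pairs. Mir192 has its mature arm at chr19:6264857-6264877, and 115 bases separate its hairpin from that of Mir194-2, whose mature arm is at chr19:6264658-6264679. No other annotated gene encloses this pair. Mir215 has its mature arm at chr1:185313610-185313630, and 195 bases separate its hairpin from that of Mir194-1, whose mature arm is at chr1:185313325-185313346. The pair on chromosome 1 lies within the span of Iars2, which encodes the mitochondrial isoleucyl-tRNA synthetase. Both Mir194 genes give the same mature sequence, so the array could not separate them. Mir204 has its mature arm at chr19:22750610-22750631 within Trpm3, and Mir211 has its arm at chr7:64205831-64205852 within Trpm1, both of them cation channel genes.

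The array reads each miRNA with probes of different lengths, each printed as several spots. A probe counted as detected when its signal was above 3 times its scanner error, and the signals of a miRNA's own detected probes were added. Signals are in arbitrary units and depend on the probe, so they were compared between arrays and not between miRNAs. By this rule, miR-192-5p, miR-194-5p, and miR-204-5p were detected on all 5 arrays, and miR-215-5p on none. From 197 to 298 miRNAs were detected on an array, with 182 detected on every array. The sham and 6 h arrays shared a slide and a scan, and so did the 12 and 24 h arrays. The 48 h array was on the slide of the latter but from another scan, so that at 12, 24, and 48 h over sham the effects of slide and of group cannot be told apart. The software also multiplied the signals by an effective feature size of 0.6 on the sham, 6 h, and 48 h arrays, of 0.774 at 12 h, and of 0.776 at 24 h. Ratios are therefore given unscaled, with one feature size for all arrays, and relative to the median of the 182 miRNAs, where any single factor per array cancels.

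miR-192-5p stayed within the scanner error of sham at 6 h, had its highest unscaled signal at 24 h, and its lowest at 48 h. The sham array read 738 ± 61.5 and the 6 h array 748 ± 62.7 (scanner error, 1 array each). Later signals were 884 ± 72.1 (12 h), 949 ± 77.3 (24 h), and 523 ± 43.1 (48 h). With one feature size, the 12 and 24 h signals were 685 and 734, so that sham, 6 h, 12 h, and 24 h lay within their combined scanner errors of each other, and 48 h alone stood below. The unscaled log2 ratio over sham was 0.36 ± 0.17 at 24 h and −0.50 ± 0.17 at 48 h. With one feature size the ratio at 24 h was −0.0068, while the 48 h ratio was the same, because both arrays had one feature size. Other scalings gave different ratios. At 48 h the spike-in controls gave −1.54. The 75th percentile (−0.37), quantile normalization (−0.26), and the authors' processed table (−0.34) gave ratios above the unscaled one there. At 6 and 12 h some scalings gave lower ratios. Scaled to the spike-in controls, the ratio over sham was −0.79 at 12 h. At 6 h it was −0.28 by the 75th percentile, −0.29 by quantile normalization, and −0.34 in the authors' processed table.

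miR-194-5p was higher at 12 and 24 h than in sham, also with one feature size. Its signal was 148 ± 12.2 in sham and 166 ± 13.7 on the 6 h array, then 255 ± 20.8 (12 h), 254 ± 20.8 (24 h), and 108 ± 9.12 (48 h). The signals at 12 and 24 h did not differ beyond their error, and neither did sham and 6 h, while 48 h was the lowest. The unscaled log2 ratio over sham was 0.16 ± 0.17 at 6 h, within its error, and 0.78 ± 0.17 and 0.77 ± 0.17 for the 12 and 24 h arrays. For 48 h it was −0.46 ± 0.17. One feature size brought the 12 and 24 h ratios to 0.41 and 0.40.

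miR-204-5p had the largest differences from sham of the detected members at 12 and 24 h, though not at 6 or 48 h. It read 7.26 ± 1.41 in sham and 7.58 ± 1.66 after 6 h, then 15.8 ± 2.56 (12 h), 46.7 ± 5.32 (24 h), and 8.29 ± 1.84 (48 h). Sham, 6 h, and 48 h did not differ beyond their error, 12 h was above them, and 24 h was above all others. Brought to one feature size, the 12 and 24 h signals were 12.2 and 36.1. Without scaling, the log2 ratio over sham was 1.12 ± 0.37 for 12 h and 2.69 ± 0.33 for 24 h, the latter a 6.43-fold higher signal. The sum held 2 probes at 24 h and 1 on the other arrays, and the 1 probe detected on all arrays gave 2.21 for 24 h. The summed ratios were 0.75 and 2.31 with one feature size. For 6 and 48 h they were 0.062 ± 0.42 and 0.19 ± 0.43.

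miR-215-5p, the relative of miR-192-5p, gave no detected probe on any array. The higher of its probe signals lay between −2.44 at 24 h and −0.934 in sham, after background subtraction. The lowest signal that would have counted as detected was 3.61 in sham, between 4.40 and 6.05 on the 6, 12, and 48 h arrays, and 8.28 on the 24 h array. A level below these values was not detectable. The array also holds the opposite arms of the hairpins, namely miR-192-3p, miR-194-1-3p, miR-194-2-3p, miR-215-3p, and miR-204-3p, and each was detected on 0 of 5 arrays.

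**Figure D1:**
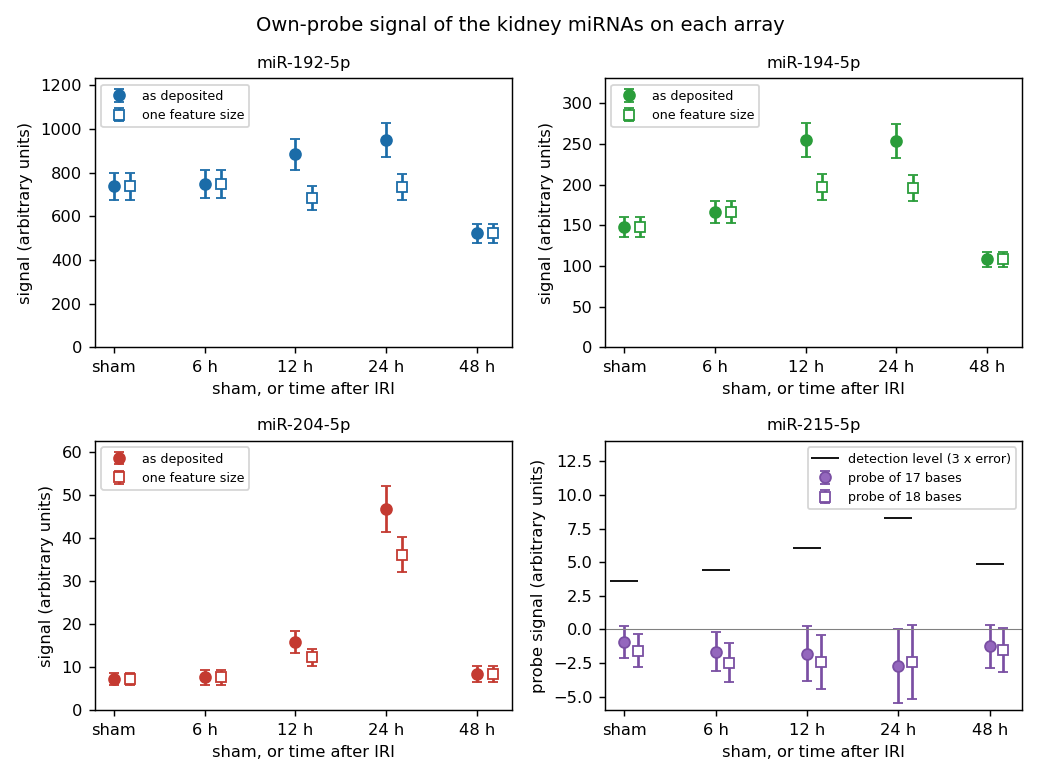
Own-probe signal (arbitrary units, linear axis from 0) of miR-192-5p, miR-194-5p, and miR-204-5p on the 5 arrays, as deposited (filled) and with one feature size (open), with the scanner error as bars. For miR-215-5p both probes are drawn with their errors and the detection level (3 times the error) as a dash. miR-204-5p is highest at 24 h with 46.7 (2 probes) against 7.26 in sham (1 probe), and no miR-215-5p probe reaches its dash. The miR-204-5p probe detected on all arrays reads 33.5 at 24 h.

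The same comparisons were set against all miRNAs detected throughout, since the arrays as a whole differed. Without scaling, the median log2 ratio of the 182 miRNAs over sham was 0.16 after 6 h and 0.55 after 12 h, 1.03 for 24 h, and −0.23 for 48 h. One feature size brought the 12 and 24 h medians to 0.18 and 0.66. Against this shift, miR-192-5p had log2 ratios relative to the median of −0.14 (6 h), −0.29 (12 h), −0.67 (24 h), and −0.27 (48 h). The value at 6 h was within the scanner error of 0.17, and the one at 12 h turned to 0.24 after quantile normalization and to 0.091 in the authors' processed table. At 24 h it was beyond the error, and 10 of the 182 miRNAs (5.49%) lay below it. The direction of miR-192-5p at 24 h over sham thus depended on the scale, being 0.36 without scaling, −0.0068 with one feature size, and −0.67 relative to the median.

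miR-194-5p relative to the median was 0.0048 for the 6 h array, 0.23 for 12 h, −0.26 for 24 h, and −0.23 for 48 h. In the order of the 182 miRNAs, 50.5% lay below it at 6 h and 30.8% at 24 h. Its higher unscaled signal at 24 h was therefore smaller than the shift of the median. miR-204-5p relative to the median was −0.094 (6 h), 0.57 (12 h), 1.65 (24 h), and 0.42 (48 h). With only the probes detected on all arrays, the 24 h value was 1.18, a 2.27-fold difference from the median ratio, and miR-204-5p ranked 12 of 182. The sums, which add its second probe at 24 h, gave rank 9.

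**Figure D2:**
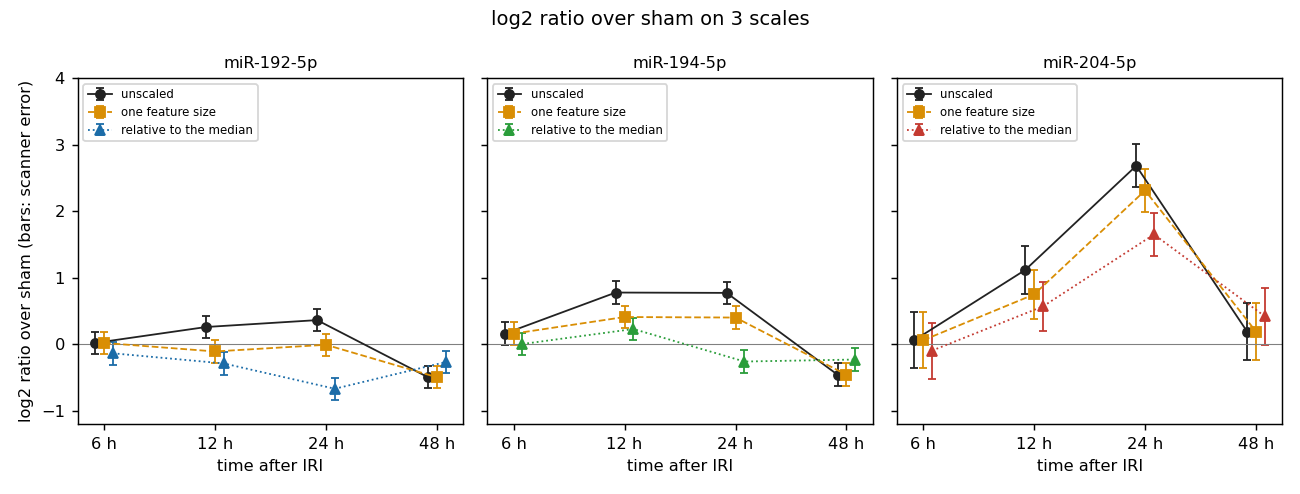
log2 ratio over sham (y axis) against time after IRI (x axis) for the 3 detected members, unscaled, with one feature size, and relative to the median of 182 miRNAs; bars are scanner errors of 1 array per group. miR-192-5p at 24 h is 0.36, −0.0068, or −0.67 on these scales, whereas miR-204-5p at 24 h is 2.69, 2.31, or 1.65. The miR-204-5p sum holds 2 probes at 24 h and 1 in sham. Its probe detected on all arrays gives 2.21 unscaled and 1.18 relative to the median.

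Calls were counted as more than 1.5-fold in one direction. Unscaled, miR-194-5p and miR-204-5p passed it upward at 12 h, as 48.4% of the 182 miRNAs did, and again at 24 h, as 85.2% did. After one feature size was set, miR-204-5p alone passed upward at 12 h (32.4% of all) and at 24 h (54.4% of all), and no member passed downward at 12 h, where 6.04% of all did. The 12 h call of miR-204-5p was lost with spike-in scaling (0.066), the 75th percentile (0.49), and normexp (0.24), and quantile normalization (−0.69) and the processed table (−1.68) turned it. Relative to the median, miR-204-5p was called higher at 24 h beside 23.6% of all miRNAs, and miR-192-5p was called lower beside 9.34%. The call of miR-192-5p was lost with total gene signals (−0.57), normexp (−0.45), quantile normalization (−0.24), and the processed table (−0.34). At 12 h, where 28% of all were called higher and 11.5% lower relative to the median, no member was, miR-204-5p lying just inside the threshold at 0.57. This depended on the processing. Quantile normalization (0.75) and the processed table (0.75) placed miR-194-5p past the threshold upward at 12 h relative to the median. miR-204-5p ranged from −1.10 to 0.70 there over the alternatives. At 6 h no member was called, with 24.7% of all higher and 4.95% lower without scaling, and 23.1% and 6.04% relative to the median. Without the median subtracted, quantile normalization (−0.71) and the processed table (−1.69) placed miR-204-5p past the threshold downward at 6 h. Relative to the median, its lowest value over the alternatives at 6 h was −1.42. At 48 h none was called either, with 16.5% higher and 23.6% lower without scaling, and 21.4% and 12.1% relative to the median. Spike-in scaling placed miR-192-5p (−1.54), miR-194-5p (−1.50), and miR-204-5p (−0.85) past the threshold downward at 48 h. It subtracts 1.04 from the log2 ratio of every miRNA there, while the unscaled median miRNA was at −0.23. The shares of all miRNAs called after spike-in scaling, after quantile normalization, and in the processed table were not counted.

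The 12 and 24 h arrays came from 1 slide and 1 scan with nearly the same feature size and were also compared with each other. miR-204-5p was higher at 24 h than at 12 h, with a log2 ratio of 1.57 ± 0.29, and was the only member called, beside 34.1% of all miRNAs both unscaled and after one feature size. Here too the sum held 2 probes at 24 h and 1 at 12 h. With only the probes detected on all arrays, the ratio was 1.09, or 0.65 relative to the median, which ranked 5 of 182 and was called higher beside 3.85% of all miRNAs. The sums gave rank 3, and also 3.85% called higher. In the same pair, miR-192-5p differed by 0.10 and miR-194-5p by −0.0052, both within their error of 0.17, while the median miRNA was higher by 0.46. From 24 to 48 h, all 3 detected members were lower by more than 1.5-fold without scaling, as were 89.6% of all miRNAs. With one feature size, miR-194-5p and miR-204-5p were, as were 67% of all. Relative to the median, the ratio of miR-204-5p over this interval was −1.25, beside 17.6% of all miRNAs called lower, and −0.83 with only the probes detected on all arrays. For miR-192-5p it was 0.38, and for miR-194-5p it was 0.011.

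**Figure D3:**
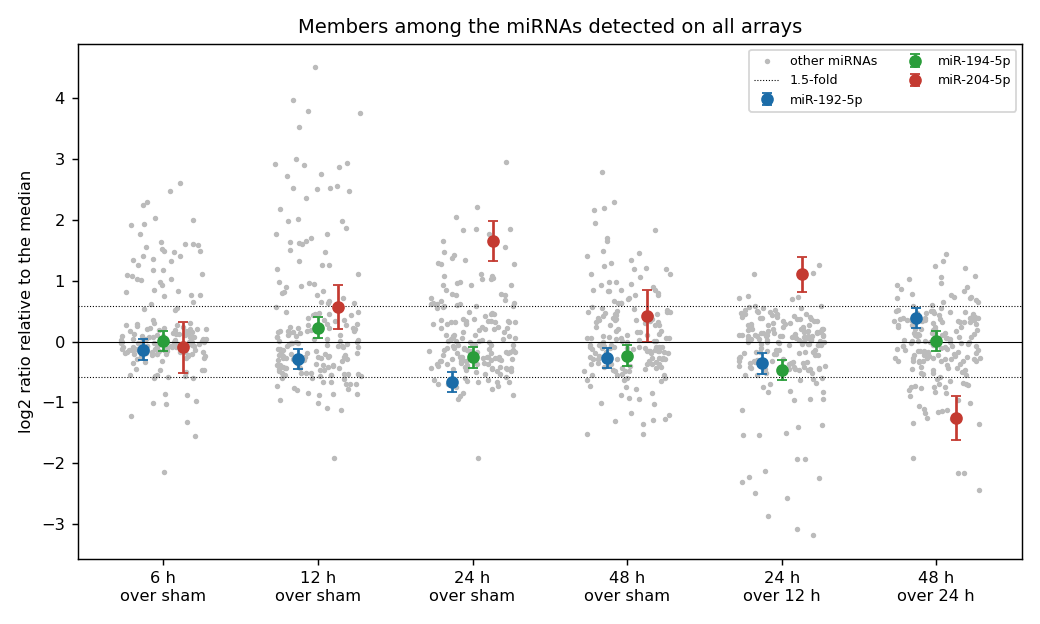
log2 ratio relative to the median (y axis) of the 182 miRNAs detected on all arrays (grey points, spread sideways for visibility) in 6 comparisons (x axis), with miR-192-5p, miR-194-5p, and miR-204-5p in colour, scanner errors as bars, and 1.5-fold as dotted lines. At 24 h over sham, miR-204-5p lies at 1.65 near the top and miR-192-5p at −0.67 near the bottom, where sums over detected probes are drawn; with only the probes detected on all arrays, miR-204-5p is at 1.18.

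miR-192-5p and miR-194-5p come in part from one gene pair, and the difference of their log2 ratios is free of any factor per array. miR-194-5p exceeded miR-192-5p by 0.14 ± 0.24 after 6 h and by 0.52 ± 0.24 after 12 h, then by 0.41 ± 0.24 (24 h) and 0.038 ± 0.24 (48 h). The differences at 12 and 24 h were beyond the scanner error, and those at 6 and 48 h were not. Each miRNA had 2 probes, giving 4 pairings, and the difference of their spot means was above 0 in all 4 at 6 h (0.13 to 0.19), 12 h (0.32 to 0.61), and 24 h (0.19 to 0.54). At 48 h it was above 0 in 2 of 4. The log2 ratio of miR-204-5p at 24 h exceeded that of miR-192-5p by 2.32 ± 0.37 and that of miR-194-5p by 1.91 ± 0.37, or by 1.84 and 1.43 with only the probes detected on all arrays.

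Single probes and spots give the technical spread behind these values. Within an array, the coefficient of variation over a detected probe's spots was 2.56% to 4.30% for miR-192-5p, 3.08% to 10.4% for miR-194-5p, and 6.79% to 22.2% for miR-204-5p. The probes of miR-192-5p did not give one ratio. At 24 h over sham, the spot means, which carry no feature size, gave 0.19 ± 0.016 for the 18-base probe and −0.056 ± 0.013 for the 19-base probe (error over spots). The gap of 0.24 ± 0.020 was larger than the spread between spots, and at 12 h it was 0.22 ± 0.020. The probes of miR-194-5p were closer, with 0.49 ± 0.033 for the 15-base probe and 0.38 ± 0.015 for the 16-base probe at 24 h.

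Of the probes of miR-204-5p, the 20-base one was detected on all 5 arrays and the 19-base one at 24 h only. Part of the summed ratio at 24 h came from adding the second probe, since the 20-base probe alone gave unscaled log2 ratios of 2.21 ± 0.34 for 24 h and 1.12 for 12 h. Its mean spot intensity was 25.7 in sham and 26.8 after 6 h, then 43.2 (12 h), 91.7 (24 h), and 29.3 (48 h). From 11 to 13 of its spots were called well above background in sham and at 6 and 48 h, and all 20 at 12 and 24 h, so the low arrays were close to the limit of the assay. The signal of the 19-base probe was 1.39 in sham, 0.578 (6 h), 4.86 (12 h), 13.2 (24 h), and 2.65 (48 h), highest on the same array.

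The relatives were then examined, because their probes pair with nearly one sequence. The probes are shown 5′ to 3′ with the differing bases in capitals.
miR-192-5p, 18 bases: gGctgtcaaTtcataggt
miR-215-5p, 18 bases: gTctgtcaaAtcataggt
miR-204-5p, 20 bases: aggcaTaggatgacaaaggg
miR-211-5p, 20 bases: aggcaAaggatgacaaaggg
The miR-192-5p and miR-215-5p probes differed in 2 bases, and on the arrays where miR-192-5p read 523 to 949, those of miR-215-5p stayed below 0. The miR-204-5p and miR-211-5p probes differed in 1 base. miR-211-5p, which has the seed of miR-204-5p, was detected at 12 h (12.9 ± 1.90, 3 of 4 probes) and at 24 h (36.8 ± 3.34, 4 of 4 probes) and not in sham or at 6 and 48 h. On the probes detected at both times, the log2 ratio of 24 h over 12 h was 1.22 to 1.32 for the 3 probes of miR-211-5p, with scanner errors of 0.43 to 0.46, and 1.09 ± 0.30 for the probe of miR-204-5p. How far each probe set reads the other miRNA was not tested.

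**Figure D4:**
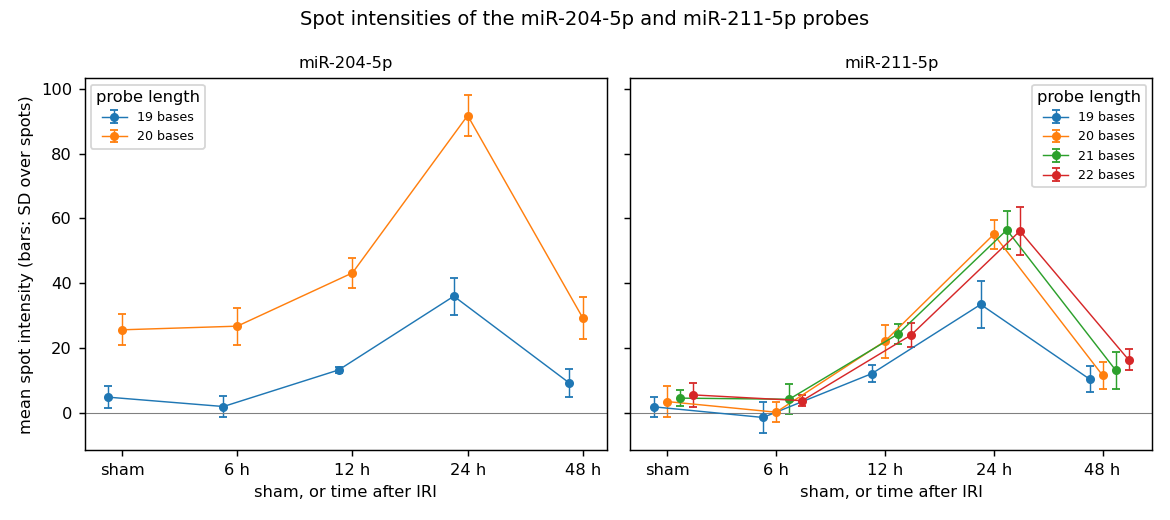
Mean intensity of unflagged spots (y axis, arbitrary units) of each miR-204-5p and miR-211-5p probe on the 5 arrays (x axis), with the SD over spots as bars. The 20-base miR-204-5p probe goes from 25.7 in sham to 91.7 at 24 h, and each probe of both miRNAs is highest at 24 h.

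The 4 log2 ratios over sham relative to the median give each member a time course, and the miRNAs with the most similar course are named by the smallest root mean square difference, over 4 comparisons that share the sham array. For miR-192-5p they were miR-361-5p, let-7b-5p, and miR-200b-5p, each at 0.14, where the median of 181 miRNAs was 0.54. For miR-194-5p they were miR-101a-3p at 0.087, miR-30e-5p at 0.12, and miR-705 at 0.12, against a median of 0.52. For miR-204-5p they were miR-674-3p at 0.31, miR-29c-5p at 0.38, and miR-3963 at 0.51, against a median of 1.11. This last set depended on the probes summed. With only those detected on all arrays, miR-677-3p, miR-3963, and miR-350-3p came nearest to miR-204-5p (0.30 to 0.32, median 0.91), and miR-101c at 0.13 replaced miR-705 beside miR-194-5p.

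Other miRNAs of kidney tubule epithelium, among them the miR-30, miR-200, and miR-10 families, were set beside the members. Of 15 on the array, 14 were detected on at least 1 array and 13 on all. Relative to the median of all miRNAs, their median log2 ratio was 0.045 (6 h), −0.24 (12 h), −0.27 (24 h), and −0.16 (48 h). At 12 h, 1 of 13 was called higher and 4 lower, beside 28% and 11.5% of all miRNAs. At 24 h, 2 of 13 were above the median miRNA, and 0 were called higher and 1 lower, beside 23.6% and 9.34% of all, with ratios from −0.64 for miR-196a-5p to 0.48 for miR-30b-5p. miR-194-5p at −0.26 lay inside this range, miR-192-5p at −0.67 just below it, and miR-204-5p above it.

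Markers of other cells were read on the same arrays. The liver (1), muscle (3), and brain (2) marker miRNAs were detected on 0 arrays. Of the 3 miRNAs in the red blood cell list, 2 were on the array, with miR-451a detected on all arrays and miR-144-3p on none. The signal of miR-451a was 159 in sham and 500 (6 h), 234 (12 h), 538 (24 h), and 105 (48 h) after IRI. Relative to the median its log2 ratio was 1.49 (6 h), 0.0035 (12 h), 0.72 (24 h), and −0.37 (48 h). It was called higher at 6 and 24 h, beside 23.1% and 23.6% of all miRNAs. Of 5 leukocyte miRNAs, 3 were detected on at least 1 array and 2 on all. The unscaled summed signal of those detected ranged from 38.2 in sham to 99.8 at 12 h, of which miR-223-3p gave 82.7. Relative to the median, the log2 ratios of the 2 detected on all arrays were unlike at 6 and 12 h. For miR-155-5p they were 0.15 (6 h), −0.30 (12 h), 0.075 (24 h), and 0.95 (48 h). For miR-223-3p they were 1.01 (6 h), 1.19 (12 h), −0.36 (24 h), and 0.98 (48 h). Both were called higher at 48 h, beside 21.4% of all miRNAs. miR-223-3p was also called higher at 6 and 12 h, beside 23.1% and 28%. Endothelial miR-126-3p relative to the median was −0.065 (6 h), −0.43 (12 h), −0.40 (24 h), and −0.27 (48 h). The part of these cells in the ratios of the members was not tested.

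The array also carries 4 spike-in controls, whose mean log2 ratio over sham was 0.069 for 6 h and 1.05, 1.09, and 1.04 for 12, 24, and 48 h. Single spike-ins spread widely, from 0.70 to 1.68 at 12 h, 0.61 to 1.58 at 24 h, and 0.63 to 1.28 at 48 h. Unscaled, the spike-ins at 48 h were thus higher than in sham by nearly as much as at 24 h. With one feature size they were at 0.72 for 24 h and 1.04 for 48 h. miR-192-5p and miR-194-5p were lower at 48 h than in sham, as was the median of the 182 miRNAs (−0.23). Scaled to the spike-ins, the log2 ratio over sham at 48 h was −1.54 for miR-192-5p, −1.50 for miR-194-5p, and −0.85 for miR-204-5p. At 24 h it was −0.72, −0.32, and 1.60. The sign of miR-194-5p at 24 h turned with the spike-in used (−0.80 to 0.16 over the 4), while miR-192-5p stayed below 0 (−1.21 to −0.25) and miR-204-5p above it (1.11 to 2.08). At 12 h, miR-192-5p was −0.79 and stayed below 0 with each spike-in (−1.42 to −0.44). The sign of miR-194-5p (−0.90 to 0.080) and of miR-204-5p (−0.56 to 0.42) turned with the spike-in used at 12 h.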

How the data were processed

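Groups were taken from the sample labels. The authors deposited, for every spot and probe of the mouse miRNA arrays (Cy3), intensity values from the scanner software (Agilent Feature Extraction 10.7.1.1), after background subtraction and without normalization between arrays, and a table of processed log2 values whose making is not stated. On that table, which served as an alternative only, scale and centring stay unknown. For each miRNA, the probe signals above 3 times their error were summed once per probe, with errors added in quadrature. For miR-192-5p and miR-194-5p, most of the error was the preset multiplicative error of 0.1. log2 ratios were computed in Python 3.11.15, and a call was a ratio past 1.5-fold. limma 3.58.1 in R 4.3.3 gave the normexp alternative (offset 50). The code was tested on 1200 simulated miRNAs, and 4 of 4 checks passed. The checks used only miRNAs with all their probes detected on each simulated array. Sums whose number of probes changes between arrays, as for miR-204-5p, were not covered. No spot was saturated. The members, lists, and named relatives were chosen with earlier results of these data known. Named miRNAs were the members, their opposite arms, miR-211-5p, 3 nearest time courses per member, and the 2 list extremes at 24 h. miR-451a, miR-144-3p, miR-126-3p, miR-126-5p, miR-155-5p, miR-223-3p (marker lists), miR-7670-3p (seed), and the nearest time courses by other probes were named after their values were seen. Ranks on the probes detected on all arrays and single spike-ins were added after seeing the data. With 1 array per group, the precision is limited by the number of arrays, and no p-value was computed. The alternatives comprised other scalings, probe choices, and background corrections.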

Additional observations from a re-analysis of the deposited data

Results flagged for a closer look

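miR-192-5p and miR-194-5p had unscaled log2 ratios over sham of opposite sign at different times, beyond the scanner error. For miR-192-5p the ratio was 0.36 at 24 h and −0.50 at 48 h. For miR-194-5p it was 0.78 at 12 h and −0.46 at 48 h. With 1 array per group, the difference between the time points was not tested. The arrays at 12 and 24 h had a larger effective feature size than the 48 h array, and with one feature size miR-192-5p at 24 h was −0.0068 and miR-194-5p at 12 h was 0.41.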

How the results depend on the processing

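All values are log2 ratios over sham unless another pair is named. miR-204-5p at 24 h was above 0 in every alternative run, from 0.94 to 2.69 without the median and from 1.06 to 1.75 relative to it, and miR-192-5p relative to the median at 24 h was below 0 in every one (−0.74 to −0.24). Unscaled values moved more. At 24 h, one feature size gave −0.0068 for miR-192-5p, 0.40 for miR-194-5p, and 2.31 for miR-204-5p, and spot means without flagged spots, chosen after seeing the data, gave the same. Spot means with flagged spots gave −0.0053, 0.40, and 2.27. Normexp gave 0.0032, 0.35, and 1.51, and relative to the median −0.45 for miR-192-5p and 1.06 for miR-204-5p. The 75th percentile of the miRNAs detected on all arrays gave −0.80, −0.39, and 1.52. Quantile normalization gave −0.47, −0.25, and 0.94, and relative to the median −0.24, −0.020, and 1.17. The processed table gave −0.57, −0.28, and 1.04, and relative to the median −0.34, −0.048, and 1.27. The spike-ins, with or without one feature size, gave −0.72, −0.32, and 1.60. For miR-204-5p the probe detected on all arrays gave 2.21, or 1.18 relative to the median. At 48 h, the spike-ins gave −1.54 for miR-192-5p, −1.50 for miR-194-5p, and −0.85 for miR-204-5p. Quantile normalization gave −0.26 and −0.25 for miR-192-5p and miR-194-5p, and the processed table −0.28 for miR-194-5p. Spot means with flagged spots gave 3.34 for miR-194-5p (3.58 relative to the median), because 1 flagged spot, which the scanner software left out, was included. At 12 h, miR-192-5p was −0.79 and miR-194-5p −0.27 by the spike-ins, and miR-204-5p was −0.69 by quantile normalization and −1.68 in the processed table. At 6 h, miR-192-5p was −0.28, −0.29, and −0.34 by the 75th percentile, quantile normalization, and the processed table. For 48 h over 24 h, miR-192-5p was 0.43, 0.22, and 0.23 by the 75th percentile, quantile normalization, and the processed table, and miR-194-5p was 0.060 by the 75th percentile and 2.95 by spot means with flagged spots. Except where the construction is named, the cause of these shifts was not tested. The 75th percentile over all miRNAs was the blank value 0.1 on every array and changed nothing, which says nothing about stability, and scaling by 1 factor per array cancels relative to the median.

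No paired analysis was possible because all groups consisted of 1 array, and no array was left out for the same reason. Scanner errors cover 1 array, not mice. Signals of miR-204-5p in sham and at 6 and 48 h were near the detection level, and miR-215-5p was below it.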
